A study of Mus musculus with 18 samples.

Results

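The comparison is of mouse oocytes matured in vitro to metaphase II beside MSC with oocytes that had not resumed meiosis, both from animals 6 weeks old. It was chosen by the source label and takes 6 of the 18 single-oocyte libraries of the series: 3 labelled MSC-IVM-MII-6wk and 3 labelled GV-6wk. All were C57BL/6 wild-type oocytes, so strain, genotype and age were shared. The GV oocytes (germinal vesicle, the intact nucleus of an oocyte arrested in prophase) had no co-culture. The MSC-IVM-MII oocytes had an overnight co-culture, and the labels do not spell out the abbreviation MSC. Maturation and co-culture therefore changed together, and 3 oocytes matured without MSC at the same age (IVM-MII) are set beside the results where they bear on them. The deposited tables list 47069 genes, of which 12037 had enough counts to be measured. The labels name no animal and no culture dish, so the 3 oocytes of a group were treated as 1 sample. No test between the groups was made, and every spread given is a spread over single oocytes.

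A fully grown oocyte is transcriptionally silent from before meiosis resumes until the embryonic genome is switched on, so its mRNA levels change by decay, by storage and by changes in tail length. During maturation many maternal mRNAs are deadenylated and destroyed, while others carry a cytoplasmic polyadenylation element (CPE) near the 3′ end and gain a longer tail and are translated. SMART-seq2 primes on the poly(A) tail, so in these libraries a lost mRNA and a shortened tail cannot be told apart, nor can a higher level and a lengthened tail. The protocol spun the nucleus down and used the supernatant, so nuclear RNA of a GV oocyte may be missing, and its part in the differences was not tested. Values are in CPM, counts divided by the scaled library size. They are shares of a library and not RNA per oocyte.

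The 3 GV libraries held 3895017, 3851604 and 3096673 counts and the 3 MSC-IVM-MII libraries 4287123, 3105405 and 3148140. GV oocytes had a count in 13046 to 15181 genes and MSC-IVM-MII oocytes in 10104 to 13117. MSC-IVM-MII oocyte 1 and GV oocyte 2 stand apart from their groups. MSC-IVM-MII oocytes 2 and 3 correlated at 0.884 across genes, and oocyte 1 with them at 0.824 and 0.850, while its correlation with IVM-MII oocyte 1 was 0.914. GV oocyte 2 correlated at 0.893 and 0.847 with the others, which correlated at 0.927. Sample titles start with Y01 for GV oocytes 1 and 2 and MSC-IVM-MII oocyte 1 and with Y03 for the rest, a prefix the labels do not explain. Many list medians whose sign or size turned on either library are given with and without it. A median printed alone may depend on them too. All 15 marker genes of the oocyte had a count in both groups.

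Maturation with MSC went with a smaller share of mRNAs for the ribosome, the nuclear-encoded respiratory chain, the proteasome and the zona pellucida. It also went with a larger share of mRNAs for deadenylation and cohesion. Chromatin modifier genes were mostly higher one by one, but their summed share overlapped between the groups. Of the 12037 measured genes, 4239 (35.2%) were at least 2-fold lower in MSC-IVM-MII oocytes and 2572 (21.4%) at least 2-fold higher, counted on the difference of mean log2(CPM + 1). In 3454 genes (28.7%) every MSC-IVM-MII oocyte lay below every GV oocyte, and in 1715 (14.2%) every one lay above. The list counts below, and statements that groups did not overlap, are to be read beside these shares of all genes. The median difference over all genes was -0.29 on the log2 scale. Without MSC-IVM-MII oocyte 1 the counts were 4644 (38.6%) lower and 2449 (20.3%) higher, and without GV oocyte 2 they were 4278 (35.5%) and 3091 (25.7%).

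The mRNAs of the egg coat and egg surface were lower in the matured oocytes. All 7 measured genes of this group were at least 2-fold lower, with a median difference of -3.79, against -0.29 over all genes. Without MSC-IVM-MII oocyte 1 the median of the group was -4.65. Zp3, the zona pellucida glycoprotein that contributes to sperm binding, had 8520, 6187 and 13222 CPM in the GV oocytes and 473, 42.8 and 48.7 CPM in the MSC-IVM-MII oocytes. Its group means differed 49.5-fold, and among the matured oocytes oocyte 1 held the most. Zp1, which cross-links zona filaments, had 2298, 1803 and 1475 CPM in GV and 701, 35.1 and 13.8 CPM after maturation. Zp2, the zona protein cut after fertilization, had 864, 1104 and 335 CPM against 162, 26.7 and 25.9 CPM. For both genes the groups did not overlap, and oocyte 1 again held several times the level of oocytes 2 and 3. Cd9, a tetraspanin needed for fusion with sperm, had 431, 340 and 572 CPM in GV and 52.0, 18.1 and 14.8 CPM after maturation. Izumo1r (Juno), the sperm receptor on the egg membrane, had 595, 488 and 838 CPM against 55.8, 90.6 and 44.5 CPM. In these 2 surface genes too the groups did not overlap, and oocyte 1 was the highest matured oocyte for Cd9 but not for Izumo1r. Gja4, the connexin that couples the oocyte to its follicle cells, had 1002, 956 and 824 CPM in GV and 85.1, 28.1 and 6.91 CPM after maturation. Its groups did not overlap either, and oocyte 1 was again the highest matured oocyte.

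Some transcription factors of oocyte growth were lower after maturation. Figla, which switches on zona genes in the growing oocyte, had 123, 53.0 and 158 CPM in GV and 2.75, 0 and 0 CPM in MSC-IVM-MII. Nobox, another regulator of oocyte genes, had 1162, 1297 and 1472 CPM against 372, 121 and 219 CPM. Over the list of oocyte transcription factors the picture was mixed, since 2 of 9 measured members were at least 2-fold lower, 2 at least 2-fold higher, and the median was 0.52. Secreted factors differed among themselves too. Fgf8, a growth factor that acts on cumulus cells, had 151, 104.6 and 177 CPM in GV and 5.07, 0.334 and 2.07 CPM after maturation. Oosp1, an oocyte-secreted protein, lay higher in every matured oocyte, with 804, 735 and 1250 CPM in GV and 2152, 2427 and 1878 CPM in MSC-IVM-MII.

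For some mRNAs the 3 matured oocytes differed among themselves. Gdf9, the growth factor through which the oocyte acts on cumulus cells, had 12502, 12544 and 12077 CPM in the GV oocytes. It had 12657 CPM in MSC-IVM-MII oocyte 1 but 1623 and 1353 CPM in oocytes 2 and 3. Mos, the kinase that starts the MAP kinase cascade of metaphase II arrest, had 955, 801 and 844 CPM in GV and 643, 1.00 and 8.63 CPM after maturation. Plat, tissue plasminogen activator, whose mRNA is stored in the GV oocyte, had 1437, 2060 and 267 CPM in GV and 1967, 95.6 and 29.0 CPM after maturation. For Gdf9 and Mos oocyte 1 sat in or near the GV range and oocytes 2 and 3 were far below it. For Plat oocyte 1 sat in the GV range and oocytes 2 and 3 lay below it. GV oocyte 3, whose title also starts with Y03, had the least Plat of the GV oocytes, at 267 CPM. Values side by side in IVM-MII oocytes 1, 2 and 3 were 17374, 572 and 1580 CPM for Gdf9, 1261, 4.97 and 6.28 CPM for Mos, and 4078, 30.4 and 28.3 CPM for Plat. Oocyte 1 of both matured groups carries the title prefix Y01 and the others Y03, so an oocyte and its prefix cannot be told apart.

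Such cases were counted over the 4752 genes with a mean of at least 20 CPM in GV and a count in every GV oocyte. In 38 of them MSC-IVM-MII oocyte 1 was at or above the lowest GV oocyte while oocytes 2 and 3 were each at least 4-fold below it. The corresponding number was 4 for oocyte 2 and 2 for oocyte 3. Gdf9 met this criterion and Mos and Plat did not. Astl also met it (ovastacin, the protease that cuts ZP2, picked after its values were seen), with 438, 669 and 263 CPM in GV and 414, 39.1 and 25.2 CPM after maturation. So did Pdia6, a protein disulfide isomerase, with 552, 501.3 and 433 CPM against 548, 99.6 and 13.8 CPM. In 808 of the 4752 genes all 3 matured oocytes were at least 4-fold below the lowest GV oocyte. The criterion was set after the values had been seen, and the counts describe these 6 oocytes.

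**Figure D1:**
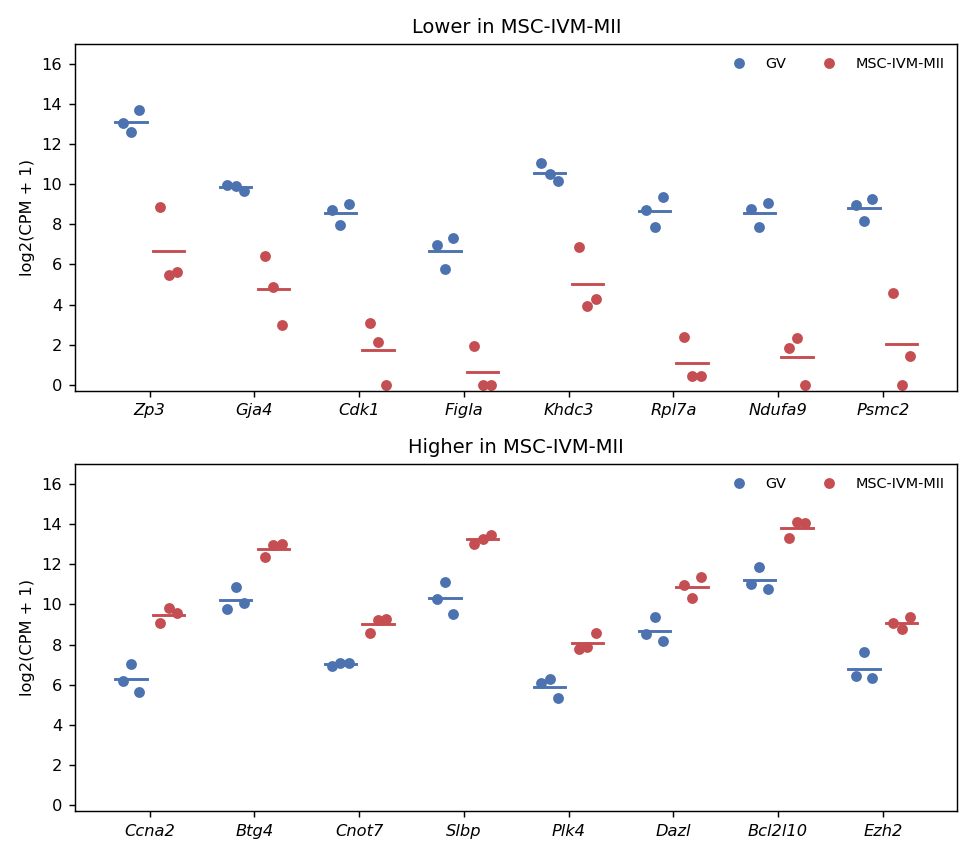
Level of 16 genes in each oocyte as log2(CPM + 1), with 3 GV oocytes (blue) and 3 MSC-IVM-MII oocytes (red) per gene and a bar at the group mean. Groups do not overlap for any gene shown, and MSC-IVM-MII oocyte 1, the leftmost red point of each gene, is the highest of its group for Zp3, Gja4, Cdk1, Figla, Khdc3, Rpl7a and Psmc2.

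Maternal effect genes, whose products are needed after fertilization, did not move as a block. Of 19 measured, 7 (36.8%) were at least 2-fold lower and 3 (15.8%) at least 2-fold higher, against 35.2% and 21.4% of all genes. Their median was 0.06 (-0.62 without MSC-IVM-MII oocyte 1, 0.15 without GV oocyte 2). Members of the subcortical maternal complex, which sits under the egg membrane, were the lowest. Khdc3, one of its subunits, had 2124, 1481 and 1147 CPM in GV and 117, 14.0 and 18.6 CPM in MSC-IVM-MII. Ooep, another subunit, had 1861, 1481 and 3222 CPM against 711, 96.6 and 42.5 CPM. Tle6, also a subunit, had 2115, 1632 and 764 CPM against 398, 52.5 and 42.8 CPM. In each the groups were separate, with oocyte 1 between the GV oocytes and the other matured oocytes. Zbed3, which has also been placed in that complex, went the other way, with 1059, 1100 and 863 CPM in GV and 4542, 5340 and 5104 CPM after maturation. H1foo, the oocyte linker histone, was among the most abundant mRNAs of both groups at mean TPM of 13652 and 17865, and its oocytes overlapped (14656, 6986 and 16693 CPM against 18950, 10101 and 12252 CPM). Dppa3, which protects the maternal genome from demethylation in the zygote, also overlapped, at 5454, 2583 and 6430 CPM against 4852, 11585 and 11834 CPM.

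Cell cycle kinases and their partners differed in both directions, with Cdk1 lower and Ccna2 higher. Of 23 measured genes of this group, 7 were at least 2-fold lower and 8 at least 2-fold higher, and the median was 0.62 (0.98 without MSC-IVM-MII oocyte 1). Cdk1, the kinase of maturation promoting factor, had 420, 249 and 513 CPM in GV and 7.39, 3.34 and 0 CPM in MSC-IVM-MII. That is 4033 counts over the GV oocytes and 45 over the matured ones, and a 110-fold difference of mean CPM. Ccna2 (cyclin A2) had 71.5, 131 and 49.0 CPM in GV and 532, 902 and 773 CPM after maturation, 8.76-fold higher. Ccnb1 (cyclin B1) had 1140, 1005 and 557 CPM against 1453, 1701 and 2052 CPM, with no overlap and a difference of 0.996, just short of 2-fold. Ccnb2 (cyclin B2) did overlap, at 572, 416 and 520 CPM against 456, 858 and 1156 CPM. Cks1b, a small subunit that binds the kinase, had 264, 270 and 272 CPM in GV and 802, 2018 and 1775 CPM after maturation. So the lowest matured oocyte for Cks1b was oocyte 1, and it still stood above all 3 GV oocytes. Mapk3 (ERK1), downstream of Mos, had 414, 370 and 339 CPM in GV and 84.9, 16.0 and 13.1 CPM after maturation.

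Anaphase genes were split evenly. Of 36 measured genes of the anaphase-promoting complex (APC/C) and the spindle checkpoint, 11 (30.6%) were at least 2-fold lower and 11 (30.6%) at least 2-fold higher. The shares over all genes were 35.2% and 21.4%. The median of the list was -0.01 (0.18 without GV oocyte 2). Fzr1 (Cdh1), the APC/C activator that holds the oocyte in prophase, had 127, 129 and 55.0 CPM in GV and 12.9, 2.01 and 8.29 CPM in MSC-IVM-MII. Ube2c, an APC/C ubiquitin-conjugating enzyme, had 344, 276 and 546 CPM against 46.7, 28.4 and 24.9 CPM. Mad2l1 (MAD2), the checkpoint protein that inhibits the APC/C, was on the other side, at 540, 420 and 488 CPM in GV and 943, 1699 and 1810 CPM after maturation. Of 34 spindle genes 6 were lower and 11 higher by 2-fold, with a median of 0.22, which was -0.10 without MSC-IVM-MII oocyte 1 and 0.57 without GV oocyte 2. Plk4, the kinase of centriole and acentriolar spindle pole assembly, had 66.1, 76.6 and 39.0 CPM against 219, 232 and 384 CPM. Aurkc, the Aurora kinase of meiotic chromosomes, had 455, 361 and 374 CPM against 825, 1340 and 961 CPM.

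Cohesin and cohesion regulators were mostly higher. Of 20 measured genes 11 were at least 2-fold higher and 1 lower, with a median of 1.15 (0.98 without MSC-IVM-MII oocyte 1, 1.78 without GV oocyte 2). Esco2, an acetyltransferase that establishes cohesion, had 72.6, 218 and 85.8 CPM in GV and 458, 437 and 765 CPM after maturation. Pttg1 (securin), which restrains separase, had 2598, 1468 and 3279 CPM against 3374, 6362 and 6407 CPM. Smc1b, the meiotic cohesin subunit, was weakly represented, at 2.15, 17.8 and 2.48 CPM in GV and 33.4, 27.7 and 44.2 CPM after maturation. In these 3 genes the groups did not overlap. Over the 20 genes every matured oocyte lay above every GV oocyte in 6 and below in 1. The shares over all genes were 14.2% and 28.7%. Smc3, a core subunit, rested on single libraries. It had 13.2, 226 and 13.8 CPM in GV and 600, 39.8 and 20.03 CPM in MSC-IVM-MII, so GV oocyte 2 and MSC-IVM-MII oocyte 1 were far above the rest of their groups, and its difference of 1.14 became -0.31 without MSC-IVM-MII oocyte 1.

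More genes for mRNA decay were higher than lower. Of 33 measured, 15 were at least 2-fold higher and 4 at least 2-fold lower, with a median of 0.90 (0.55 without MSC-IVM-MII oocyte 1, 1.36 without GV oocyte 2). Every matured oocyte lay above every GV oocyte in 9 of them and below in 3, against 14.2% and 28.7% of all genes. Btg4, the adaptor that brings the CCR4-NOT deadenylase to maternal mRNAs, had 882, 1895 and 1064 CPM in GV and 5269, 8055 and 8214 CPM after maturation. Cnot7, a catalytic deadenylase of CCR4-NOT, had 120, 136 and 133 CPM against 375, 591 and 610 CPM. Cnot4, a ubiquitin ligase that binds the complex, had 18.3, 74.7 and 8.51 CPM against 212, 259 and 305.3 CPM. All 3 were higher in every matured oocyte, by 5.61-fold, 4.05-fold and 7.65-fold of mean CPM. Pan2, the catalytic subunit of the other cytoplasmic deadenylase, had 1.61, 12.9 and 2.48 CPM in GV and 58.1, 21.4 and 23.5 CPM after maturation. Its partner Pan3 had 3.23, 30.4 and 1.06 CPM against 100.99, 20.4 and 28.7 CPM, where GV oocyte 2 overlapped the matured oocytes. Members with little difference were Cnot8, a paralog of Cnot7, at 90.6, 194 and 55.3 CPM against 313, 72.9 and 118 CPM, and Lsm1, of the decapping-activating ring, at 88.4, 101.2 and 211 CPM against 107, 120 and 126 CPM.

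Genes for mRNA storage and poly(A) binding were divided. Of 29 measured, 9 were at least 2-fold lower and 10 at least 2-fold higher, with a median of -0.12 (-0.28 without MSC-IVM-MII oocyte 1, 0.10 without GV oocyte 2). Zar1l, a relative of the storage protein ZAR1, had 488, 372 and 677 CPM in GV and 6.34, 9.03 and 6.56 CPM in MSC-IVM-MII, a 70.1-fold difference. Zar1 itself, which holds stored mRNAs in oocytes, overlapped, at 3083, 2242 and 1933 CPM against 2108, 1154 and 1438 CPM. Pabpc1l (ePAB), the embryonic poly(A)-binding protein, had 99.995, 101.4 and 62.4 CPM against 30.0, 0.669 and 0.691 CPM. Dazl, an RNA-binding protein that promotes translation in maturing oocytes, was the reverse, at 363, 666 and 286 CPM in GV and 2022, 1265 and 2679 CPM after maturation. The groups did not overlap for Zar1l, Pabpc1l and Dazl.

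Ribosomal protein mRNAs were low almost throughout. Of 79 measured genes of the cytosolic ribosome, 76 were at least 2-fold lower in MSC-IVM-MII oocytes and none was 2-fold higher. In 72 of them every matured oocyte lay below every GV oocyte, against 28.7% of all genes. The median difference was -4.21, and it was -4.10, -4.44 and -4.59 in matured oocytes 1, 2 and 3 taken singly. Summed over the list, the GV oocytes had 16644, 9325 and 24514 CPM and the MSC-IVM-MII oocytes 1845, 1858 and 1491 CPM. Rpl7a, of the large subunit, had 421, 229 and 665 CPM in GV and 4.23, 0.334 and 0.345 CPM after maturation. Its matured oocytes held 22 counts in all (exact Poisson 95% interval 13.8 to 33.3, which covers counting error only) against 4383 in GV. Rpl23a had 150, 90.7 and 291 CPM in GV and no count in any of the 3 matured oocytes. Set against a floor of 3 counts per library, it was at least 199-fold lower. Rpl3 likewise had 87.1, 65.2 and 175 CPM and no count, at least 122-fold lower. The member with the highest TPM, Rps29, had 297, 191 and 423 CPM against 15.8, 3.34 and 0.691 CPM. Ribosomal protein genes have many processed copies in the genome, so reads may be divided among copies and single values are less certain than the group.

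Mitochondrial ribosome genes, encoded in the nucleus, were lower as well, with 61 of 78 at least 2-fold lower and 1 higher. Their median was -2.61 (-2.02 without MSC-IVM-MII oocyte 1). Mrpl12, which also binds mitochondrial RNA polymerase, had 316, 165 and 406 CPM in GV and 2.54, 0.334 and 0 CPM in MSC-IVM-MII. Initiation factors were less uniform. Of 53 measured, 20 (37.7%) were lower and 13 (24.5%) higher by 2-fold, against 35.2% and 21.4% of all genes. The median of -0.32 was close to that of all genes, yet subunits of eIF3, the scaffold of the preinitiation complex, were among the lowest. Eif3g had 421, 229 and 553 CPM against 8.45, 4.35 and 0 CPM, and Eif3m 415, 223 and 454 CPM against 18.6, 21.7 and 1.38 CPM. Eif4e, the cap-binding factor, differed little, with 685, 545 and 472 CPM in GV and 315, 384 and 552 CPM after maturation.

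Nuclear genes of the respiratory chain were lower and mitochondrially encoded ones higher. In complex I, which takes electrons from NADH, 38 of 44 genes were at least 2-fold lower and 1 higher, with a median of -3.65. In complexes II to V, 34 of 41 were lower and 1 higher, with a median of -3.09. Ndufa9, a complex I subunit, had 437, 234 and 542 CPM in GV and 2.54, 4.01 and 0 CPM in MSC-IVM-MII, 185-fold lower. Atp5o, a stalk subunit of ATP synthase, had 429, 212 and 676 CPM against 6.97, 2.01 and 0.691 CPM. Ndufa10, also of complex I, was the member that went the other way, with 242, 153 and 262 CPM in GV and 535, 1039 and 1017 CPM after maturation. The groups did not overlap for any of these 3 genes.

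Of the 13 protein-coding genes of the mitochondrial genome, 10 were at least 2-fold higher and none lower, with a median of 1.51. The median was 0.29 in MSC-IVM-MII oocyte 1 and 2.32 and 1.97 in oocytes 2 and 3, and 1.07 as the mean of the differences within title prefixes. mt-Cytb, the cytochrome b of complex III, had 5736, 1786 and 12212 CPM in GV and 10657, 30898 and 33277 CPM after maturation. mt-Atp6, of ATP synthase, had 4554, 1401 and 8858 CPM against 6491, 22707 and 24038 CPM. In both genes oocyte 1 fell inside the GV range and the other matured oocytes were above it. Only mt-Nd4, chosen for that reason, had no overlap, with 866, 344 and 1108 CPM in GV and 1321, 2533 and 2765 CPM after maturation. Mitochondrial genes took 0.917 to 3.70% of the counts in GV oocytes and 3.03 to 8.65% in MSC-IVM-MII oocytes. Since CPM are shares, these values do not say whether a mitochondrial transcript became more abundant or others less so.

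**Figure D2:**
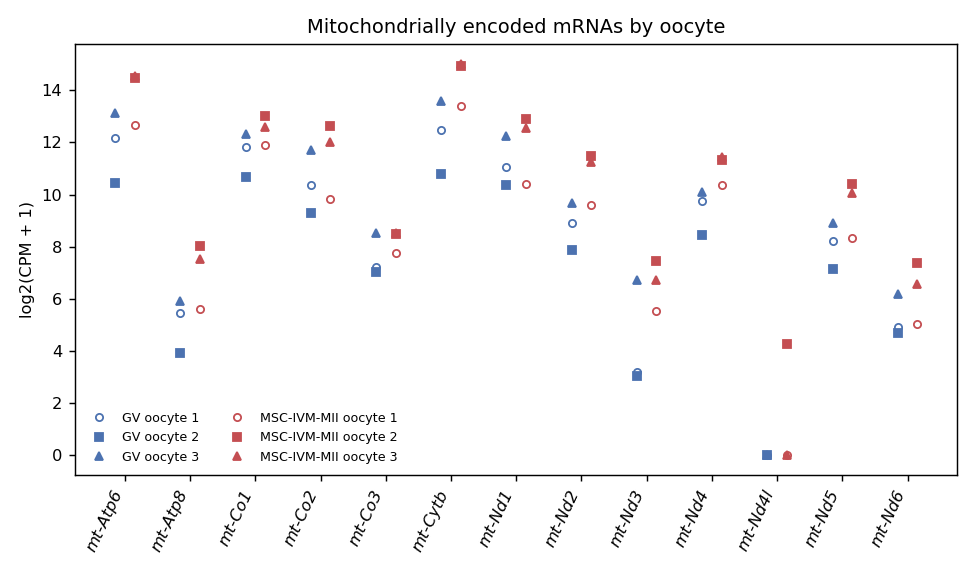
Level of each of the 13 mitochondrially encoded mRNAs as log2(CPM + 1), with GV oocytes in blue and MSC-IVM-MII oocytes in red and a marker shape for each oocyte. MSC-IVM-MII oocytes 2 and 3 are at or above the GV oocytes for most genes, while oocyte 1 (open circles) lies among them for most, and the medians over the 13 genes are 2.32, 1.97 and 0.29.

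The proteasome and the chaperonin followed the ribosome. Of 35 proteasome genes, 24 were at least 2-fold lower and 2 higher, with a median of -2.29 (-1.62 without MSC-IVM-MII oocyte 1). Psmc2, an ATPase of the regulatory particle, had 506, 285 and 625 CPM in GV and 23.2, 0 and 1.73 CPM in MSC-IVM-MII. Psmb7, a catalytic core subunit, had 157, 87.8 and 128 CPM against 3.59, 0 and 0 CPM. Psma7, the core subunit with the highest TPM, was not lower, at 1482, 813 and 1888 CPM against 1854, 2863 and 2066 CPM. Of the 8 genes of the TRiC chaperonin, which folds actin and tubulin, 5 were lower and none higher by 2-fold. Cct5 had 1165, 943 and 1128 CPM in GV and 45.0, 80.6 and 39.7 CPM after maturation. Cct6a, another subunit of the ring, overlapped at 30.9, 17.8 and 52.9 CPM against 9.30, 31.8 and 16.2 CPM.

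Metabolic and redox genes were lower in part. Of 16 glycolysis genes, 9 were at least 2-fold lower and none higher, with a median of -1.14. Tpi1, triosephosphate isomerase, had 141, 157 and 215 CPM in GV and 2.54, 19.4 and 10.02 CPM in MSC-IVM-MII. Ldhb, the lactate dehydrogenase subunit that predominates in mouse oocytes, had 11984, 8247 and 11888 CPM against 11830, 9491 and 16148 CPM, and its groups overlapped. Of 28 antioxidant genes 14 were lower and 2 higher, with a median of -0.89. Sod1, cytosolic superoxide dismutase, had 1019, 548 and 686 CPM in GV and 46.5, 86.2 and 103.3 CPM after maturation. Gpx4, which reduces lipid peroxides, had 222, 120 and 442 CPM against 7.18, 7.69 and 12.8 CPM. Prdx1, a peroxiredoxin, overlapped, at 1943, 1049 and 2214 CPM against 1220, 1763 and 1330 CPM. Cholesterol synthesis genes split into 6 lower (35.3%) and 5 higher (29.4%) of 17, against 35.2% and 21.4% of all genes. Fdft1 (squalene synthase), at the branch to sterols, had 1504, 1139 and 1198 CPM in GV and 96.1, 77.6 and 33.5 CPM after maturation.

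Chromatin modifiers were mostly higher. Of 33 measured, 18 were at least 2-fold higher and 2 lower, with a median of 1.17 (0.77 without MSC-IVM-MII oocyte 1, 1.83 without GV oocyte 2). Every matured oocyte lay above every GV oocyte in 9 of them and below in 2, against 14.2% and 28.7% of all genes. Summed over the list, the GV oocytes had 1085, 2398 and 748 CPM and the MSC-IVM-MII oocytes 3934, 1845 and 2365 CPM. In that sum GV oocyte 2 lay above matured oocytes 2 and 3. Ezh2, the methyltransferase of Polycomb complex 2, had 86.3, 197 and 79.1 CPM in GV and 544, 434 and 668 CPM in MSC-IVM-MII. Suz12, its core partner, had 1.88, 27.2 and 1.77 CPM against 49.2, 31.1 and 42.1 CPM. Eed, the third core subunit, overlapped, at 215, 229 and 201 CPM against 329, 177 and 518 CPM. Tet3, the dioxygenase that oxidizes methylated cytosine in the zygote, had 4.03, 124 and 2.48 CPM in GV and 353, 41.8 and 45.2 CPM after maturation, so it too was concentrated in GV oocyte 2 and MSC-IVM-MII oocyte 1. Dnmt3l, the cofactor of de novo DNA methylation in growing oocytes, was lower, at 352, 291 and 201 CPM against 70.1, 37.1 and 21.1 CPM.

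Histone mRNAs and the protein that binds their stem-loop differed in direction. Slbp, the stem-loop binding protein, had 1258, 2191 and 735 CPM in GV and 8358, 9888 and 11469 CPM in MSC-IVM-MII, 7.10-fold higher. H2afx, the histone variant phosphorylated at DNA breaks, had 123, 112 and 137 CPM against 4.23, 0.669 and 3.11 CPM. Of 12 measured genes of the list 7 were lower and 3 higher by 2-fold. Bcl2l10, an oocyte member of the BCL2 family, was among the most abundant mRNAs of matured oocytes, with a mean TPM of 15816 against 2687 in GV. It had 2110, 3756 and 1720 CPM in GV and 10328, 17632 and 17319 CPM after maturation. Chek1, the checkpoint kinase, had 97.6, 132 and 50.7 CPM against 368, 464 and 392 CPM. Of 35 DNA damage genes 14 were higher and 8 lower, with a median of 0.63.

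The largest differences upward included mRNAs that were scarce in the GV libraries. Gpd2, the mitochondrial glycerol-3-phosphate dehydrogenase, led with 0, 2.68 and 0 CPM in GV and 102.3, 27.7 and 24.9 CPM in MSC-IVM-MII. Plag1, a zinc finger transcription factor, had 0.806, 6.08 and 0 CPM against 60.6, 12.4 and 51.1 CPM. Lin7c, a cell polarity scaffold, had 9.14, 16.8 and 6.74 CPM against 89.4, 179 and 135 CPM. Psip1, a chromatin-bound coactivator, had 28.5, 82.5 and 13.1 CPM against 327, 312 and 379 CPM. In each of these the highest GV oocyte was oocyte 2. Their groups did not overlap, which was a condition of their choice and not a result. At low levels the pseudocount understates a difference.

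**Figure D3:**
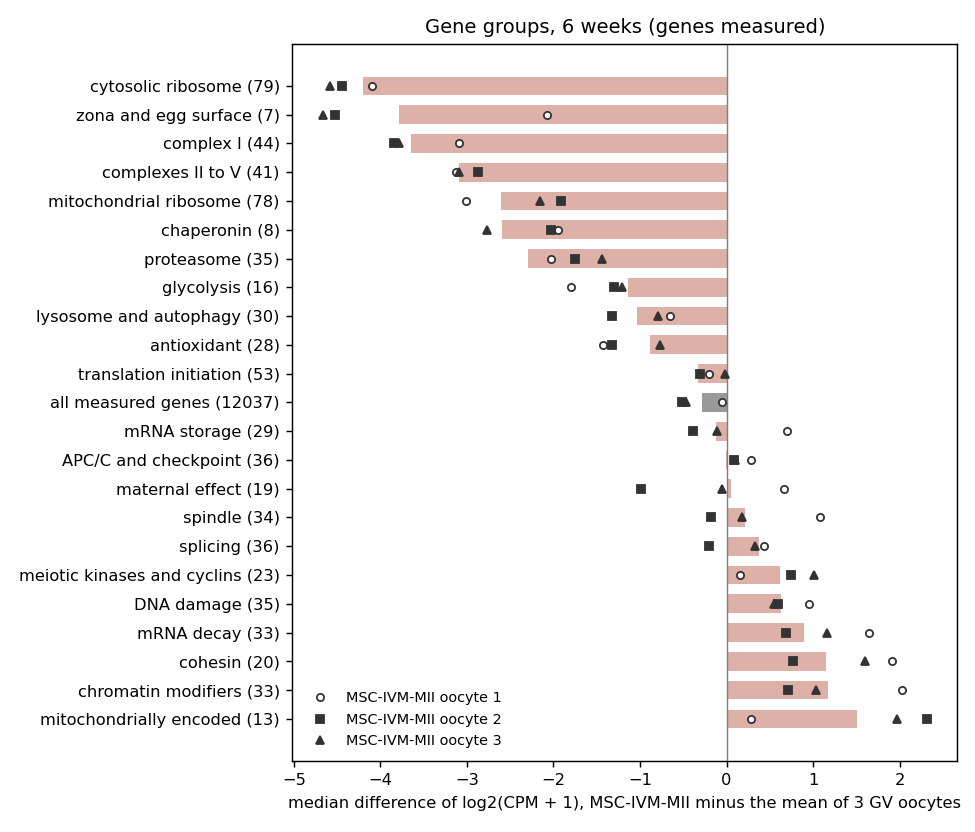
Median difference of log2(CPM + 1) from the mean of the 3 GV oocytes for 22 gene groups and for all measured genes, with the number of measured genes in parentheses, bars for the group of 3 MSC-IVM-MII oocytes and a marker for each oocyte. The cytosolic ribosome (-4.21) lies lowest and the mitochondrially encoded genes (1.51) highest, and oocyte 1 (open circles) stands to the right of oocytes 2 and 3 for zona, spindle, mRNA decay and chromatin modifier genes.

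The 3′ ends of some of these mRNAs are shown because the CPE and the cleavage signal lie there. These genes were chosen after their values were seen. Each run is the 30 bases that end with the polyadenylation signal, from 1 coding transcript per gene of GENCODE M21 (GRCm38), on the strand of the gene, with a CPE (TTTTAT or TTTTAAT) and the signal in capitals.
Plk4: gatttctgcaaatacaTTTTATaaAATAAA
Pan2: tgcttaaaacagcatgTTTTATaaAATAAA
Pan3: tattTTTTAATaaagaattgcagaAATAAA
Pcnt: tttattctTTTTATtggcaaaacaAATAAA
Bcl2l10: catTTTTAATaacttcaaattcttAATAAA
Gdf9: tgctgtggTTTTATgtgacggaagAATAAA
Slbp: tttgtatggaatgataattgcaaaAATAAA
Ccna2: gaacagtaattatatatgtgtgtaAATAAA
Khdc3: tgcaaacacaatttaaagtattctAATAAA
Gja4: tagttccactgtttatgatcctcaAATAAA
Cdk1: aatttaatgtgcctaatggcacggAATAAA
The runs lie at chr3:40816832-40816861 on the + strand for Plk4, chr10:128321301-128321330 (+) for Pan2, chr5:147548467-147548496 (+) for Pan3, chr10:76351280-76351309 (-) for Pcnt, chr9:75351588-75351617 (+) for Bcl2l10 and chr11:53437858-53437887 (+) for Gdf9. Those without a CPE in the run lie at chr5:33640076-33640105 (-) for Slbp, chr3:36564885-36564914 (-) for Ccna2, chr9:73104397-73104426 (+) for Khdc3, chr4:127311437-127311466 (-) for Gja4 and chr10:69335168-69335197 (-) for Cdk1. All lie in the 3′ UTR of the last exon. Plk4 has 3 such motifs within 100 bases before its signal and Pan2 has 2. Both were higher after maturation, by 2.19 and 2.67 on the log2 scale, as were Pan3 (2.63), Pcnt, the pericentrin of spindle poles (2.47), and Bcl2l10 (2.62). Gdf9 has 1 motif and was lower (-2.03). Slbp (2.96) and Ccna2 (3.20) have none in that window and were higher, and Khdc3 (-5.55), Gja4 (-5.10) and Cdk1 (-6.83) have none and were lower. They were picked to show each of the combinations, and their proportions are not a result.

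Across all genes the number of CPEs went with the difference. A transcript with a signal in its last 40 bases and a 3′ UTR of at least 150 bases could be taken for 7494 genes, and 1473 of them (19.7%) had at least 1 CPE within 100 bases before the signal. The median difference was -0.22 for the 6021 genes with none, 0.46 for 1215 genes with 1, 0.57 for 231 genes with 2 and 1.24 for 27 genes with 3 or more. Genes at least 2-fold lower made up 32.9%, 18.7%, 13.9% and 7.41% of these classes, and genes at least 2-fold higher 21.8%, 34.2%, 38.5% and 51.9%. Without MSC-IVM-MII oocyte 1 the medians were -0.38, 0.22, 0.33 and 1.09. In matured oocytes 1, 2 and 3 taken singly, genes with none had medians of 0.07, -0.45 and -0.37 and genes with 1 or more 0.97, 0.23 and 0.35. The motif written with its letters reversed (TATTTT or TAATTTT) also went with higher values, by a smaller margin. Its median was 0.29 with 1 or more and -0.18 with none, a gap of 0.48. For the CPE these were 0.48 and -0.22, a gap of 0.71. The reversed motif was graded by number too, with medians of -0.18, 0.26, 0.38 and 0.65 from none to 3 or more. Genes that carry both motifs were not separated. The content of A and T near the end differs between these classes, so genes were also split into quintiles of that content. From the poorest to the richest in A and T, the medians with and without a CPE were -0.14 and -1.14, 0.15 and -0.40, 0.38 and 0.03, 0.47 and 0.24, and 0.67 and 0.26. The gap was smallest in the quintile next to the richest. The number of CPEs also went with differences inside groups. From none to 3 or more, GV oocyte 2 against GV oocytes 1 and 3 had medians of 0.30, 0.55, 0.72 and 1.04. MSC-IVM-MII oocyte 1 against oocytes 2 and 3 had 0.34, 0.54, 0.62 and 0.998. Without both of these libraries the medians between groups were -0.24, 0.44, 0.53 and 1.23. The part of single libraries in the grading between groups was not tested. Genes are not independent replicates and a match is not a shown binding site.

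Transcript length went with the difference too. From the shortest quintile of coding transcripts (63 to 1581 bases) to the longest (4805 bases and more), the median difference was -1.55, -0.82, -0.09, 0.14 and 0.43. The same grading appears inside groups: GV oocyte 2 against GV oocytes 1 and 3 ran from -0.68 to 1.10, and MSC-IVM-MII oocyte 1 against oocytes 2 and 3 from -0.07 to 1.03. Differences between single oocytes of a group thus ran along the same axis. Neither their source nor their part in the difference between groups was tested. Without both of these libraries the medians over the quintiles ran from -1.71 to 0.42. Ribosome, complex I and complexes II to V mRNAs are short, with median transcripts of 833, 940 and 838 bases against 2837 for all genes. Zona and egg surface mRNAs (1533) and proteasome mRNAs (1540), also lower, are short too. Chromatin modifier, cohesin and mRNA decay mRNAs, which were mostly higher, are long at 5918, 4771 and 3844. The mitochondrially encoded mRNAs go the other way, being higher and short at 784. Among genes with a usable 3′ end, from the shortest quintile to the longest, the medians with and without a CPE were 0.14 and -1.24, 0.35 and -0.65, 0.55 and -0.002, 0.48 and 0.18, and 0.75 and 0.38. GC content of the transcript and GV level in TPM went with the difference as well. From the lowest quintile to the highest, the median ran from 0.48 to -1.27 for GC content and from 0.28 to -1.39 for GV level. GV level enters the difference itself, so that grading is no separate result.

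**Figure D4:**
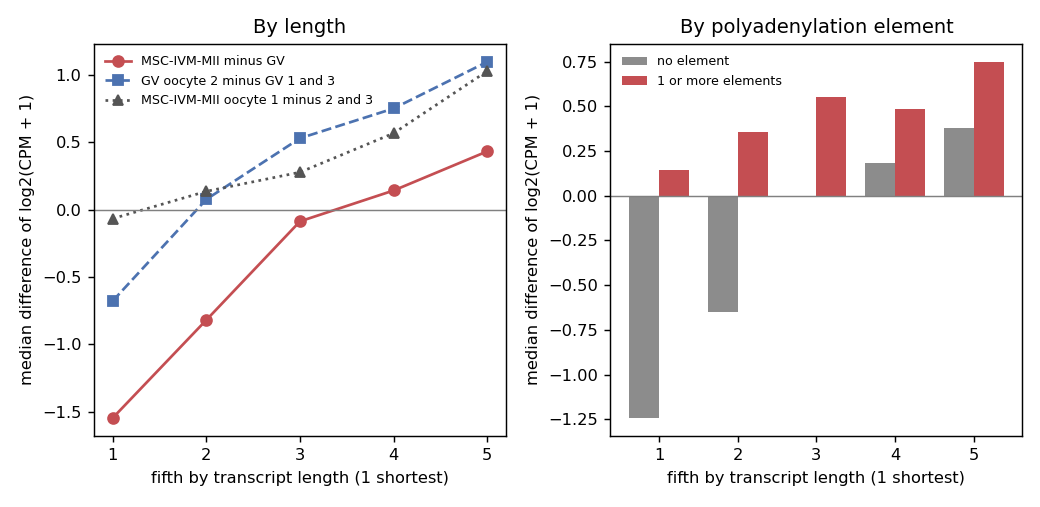
Left, median difference of log2(CPM + 1) by quintile of transcript length for MSC-IVM-MII minus GV (red) and for the 2 libraries that stand apart, each against the rest of its group. Right, the median difference between groups in genes with and without an element (CPE) by length quintile among the genes with a usable 3′ end, where genes with an element lie above those without in each quintile.

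Some markers of other cells had a count in both groups. Of 29 cumulus and granulosa markers 12 were measured, 7 of them at least 2-fold lower, none higher and 5 between. Every matured oocyte lay below every GV oocyte in 6 of the 12 and above in 1. Their median was -1.93, and it was 0.73 among markers with a mean of at least 10 CPM. The markers named below as having no count after maturation therefore do not stand for the whole list. A count was seen for 23 of the 29 in at least 1 GV oocyte and for 9 in at least 1 MSC-IVM-MII oocyte. Their summed level was 215, 436 and 466 CPM in GV and 919, 221 and 253 CPM after maturation. Inha, the inhibin subunit of granulosa cells, had 42.7, 21.4 and 125 CPM in GV and no count in the matured oocytes. Gja1, the gap junction protein of cumulus cells, had 9.41, 5.11 and 41.9 CPM and Hsd17b1, an estrogen-producing enzyme, 5.38, 2.19 and 22.0 CPM, and both had no count after maturation. The high sum of MSC-IVM-MII oocyte 1 was due to Serpine2, a protease inhibitor, at 836 CPM there, 159 and 198 CPM in the other matured oocytes and 97.0, 344 and 147 CPM in GV. Mesenchymal markers summed to 37.0 to 68.1 CPM in GV and 32.5 to 60.002 CPM in MSC-IVM-MII, with a count for 9 and 8 of 25. The part of such RNA in the differences between groups was not tested.

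Set beside the matured oocytes without MSC, which were compared with the same GV oocytes, the medians were -4.15 for the cytosolic ribosome (-4.21 with MSC), -3.86 for complex I (-3.65), -2.16 for the proteasome (-2.29), 0.92 for cohesin (1.15), 0.71 for mRNA decay (0.90) and 0.46 for chromatin modifiers (1.17). In that comparison 4725 genes (39.3%) were at least 2-fold lower and 2010 (16.7%) higher. The shared GV oocytes push both sets of values the same way, so no likeness between them is drawn from these numbers. The co-cultured oocytes from animals 12 months old against GV oocytes of that age share no library with this comparison. Over the 12037 genes the differences at the ages of 6 weeks and 12 months correlated at 0.844 (Pearson) and 0.810 (Spearman), and 79.2% had the same sign. Genes are not independent replicates, and age and title prefix cannot be told apart. At 12 months 5019 genes (41.7%) were lower and 2013 (16.7%) higher. The median was -4.72 for the cytosolic ribosome, 0.26 for cohesin and 0.26 for chromatin modifiers, against 1.15 and 1.17 for the latter lists at 6 weeks.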

How the data were processed

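The libraries were SMART-seq2 of single mouse oocytes. Expected counts, TPM and FPKM per gene are as deposited by the authors, per the file headers; how they were made is not given in the sources used here. Per the submitters' processing notes, Trim Galore 0.4.5, FastQC 0.11.8, Cufflinks and TopHat2 2.1.1 were run against mm10 (GRCm38.p5). FPKM, as deposited, was not used. Deposited TPM served for levels between genes and as an alternative unit. Expected counts were rounded. TMM scaling over all 18 libraries and the filterByExpr filter, by group over the 6 groups, came from edgeR 4.0.16 (R 4.3.3), so a gene could pass through any group in which it is high. A difference is that of the group means of log2(CPM + 1). A gene was counted as lower or higher at 2-fold or more, and folds are ratios of mean CPM. Intervals and floors cover counting error only, since the labels name no molecular identifiers. Symbols and 3′ ends came from GENCODE M21, which matched 46574 of 47069 genes. Totals of 3096673 to 4287123 counts per oocyte set the precision. The smallest chi-square per degree of freedom between 2 of the 6 libraries was 24.9, so no pair agreed within sampling noise. Scripts were first tested on simulated data. Other tools were Matplotlib 3.10.9, SciPy 1.17.1, Python 3.11.15, pandas 2.3.3 and NumPy 2.4.6.

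To be named, a gene needed at least 20 CPM on average in whichever group was higher, no overlap between oocytes, and a symbol that is not a predicted gene, clone or pseudogene. The 20 largest differences each way were taken. Each of 35 gene lists added its 4 members with the largest differences and its 4 with the highest TPM. This gave 252 genes, some of which are described. Astl and mt-Nd4 fall outside this rule and were chosen after their values were seen. The members and lists were chosen with earlier results of these data known. Alternatives were DESeq2 1.42.0 size factors, other scalings, filters, pseudocounts, TPM, single oocytes left out and title prefixes. No count model was fitted, since the labels name no animal.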

Additional observations from a re-analysis of the deposited data

How the results depend on the processing

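Of the 35 list medians, those at least 1 log2 unit from 0 kept their sign under the alternatives run, except that of the cumulus and granulosa markers, which was 0.73 among genes with a mean of at least 10 CPM. Smaller medians did change sign: 12 of the 35 lists did so under at least 1 alternative, that marker list included. Of 92 genes followed, 4 changed sign under at least 1 alternative: Smc3, to -0.31 without MSC-IVM-MII oocyte 1 (2.47 without GV oocyte 2), and H1foo, Cnot8 and Lsm1, whose differences were within 0.49 of 0. The median over all genes was -0.29, and it was -0.41 with DESeq2 size factors and -0.17 with TMM over the 6 libraries, so differences are relative to that shift. The count of lower genes was 2396 at a mean of at least 10 CPM, where 6452 genes were tested, and 2802 with a pseudocount of 5. With pseudocounts of 0.1 and 5 the median was -4.74 and -3.50 for the cytosolic ribosome and -4.23 and -2.93 for complex I, and with 5 it was -2.77 for complexes II to V and -1.85 for the proteasome. Complexes II to V had -3.29 with DESeq2 size factors and -2.92 with TMM over the 6 libraries, and the cytosolic ribosome -4.46 within title prefixes. The gap between genes with and without a CPE, 0.71, was 0.47 with no filter, 0.90 at a mean of at least 10 CPM, 0.95 and 0.41 with pseudocounts of 0.1 and 5, 0.52 from deposited TPM and 0.48 with reversed letters. Leaving out oocytes, the medians ranged from 0.78 to 1.78 for cohesin, -5.14 to -3.86 for the cytosolic ribosome, -4.38 to -3.32 for complex I, -3.43 to -2.82 for complexes II to V and -2.31 to -1.62 for the proteasome. These ranges include leaving out MSC-IVM-MII oocyte 1 and GV oocyte 2 together, which gave -5.14, -4.38, -3.29 and -1.76 for the last 4 lists. That alternative and the reversed letters were added after seeing the data, and the cause of each shift was not tested. No paired analysis was possible because the labels give no replicate numbers that groups share. The values within title prefixes set 2 GV oocytes against 1 matured oocyte or the reverse, and so pair no oocytes. Genes with few counts and genes at 0 are limited by depth.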

Other observations

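Lysosome and autophagy genes were lower more often than all measured genes. Of 30, 16 (53.3%) were at least 2-fold lower and 5 (16.7%) higher in MSC-IVM-MII oocytes, against 35.2% and 21.4% of all 12037 measured genes. Their median was -1.04, against -0.29 over all genes. Of 36 splicing genes 10 (27.8%) were lower and 15 (41.7%) higher, with a median of 0.37 that was -0.28 without MSC-IVM-MII oocyte 1. Snrpd2, a core protein of spliceosomal particles, had 237, 112 and 364 CPM in GV and 2.32, 1.00 and 1.38 CPM after maturation. Of 22 genes of PI3K and mTOR signalling 2 (9.09%) were lower and 7 (31.8%) higher. Foxo1, a transcription factor inhibited by that pathway, had 3.76, 52.8 and 5.32 CPM in GV and 235, 94.6 and 80.5 CPM after maturation. The median of cholesterol synthesis genes was 0.75 at 6 weeks (0.10 without MSC-IVM-MII oocyte 1, 1.09 without GV oocyte 2) and -1.76 in the comparison at 12 months, and the difference between ages was not tested.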
